A study of Mus musculus with 12 samples.

Results

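The genes described here are 37 close neighbours of Cacna1a on mouse chromosome 8. They were listed for their place on the chromosome, but with earlier results of these data known. The list is not complete, since 12 other measured genes of the same stretch are not members. Cacna1a codes for the channel-forming protein of P/Q-type calcium channels, and it is the gene that carries the knocked-in allele in these mice. The array annotation listed a probe set of its own for 32 of the 37 genes, and 30 were bright enough to enter the analysis, out of 12672 genes measured. No probe set was listed for Nanos3, Podnl1, Rln3, Palm3 and Stx10. The interleukin receptor gene Il27ra and the chloride channel gene Best2 had 1 probe set each, with mean log2 values of 0.96 and 1.10 that lay under the filter of 1.58. In gene order 12 of the 30 lie on the Zswim4 and Tecr side of Cacna1a and 18 on the Ier2 and Wdr83 side; these are called the genes before and after Cacna1a below.

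Cerebella came from 12 mice aged 6 weeks on a C57BL/6 background, with 1 expression array per mouse and 3 mice in each of 4 groups. Knockin mice were homozygous for a Sca6 allele with 118 glutamine codons (MPI 118Q/118Q) or with 11 (MPI 11Q/11Q), and each line had its own wild type littermates (MPI 118Q-WT and MPI 11Q-WT). How the alleles were built and which sequence around Cacna1a went with them is not given in the sources used here. Values are log2 expression, so a difference of 1 is a 2-fold change; errors of differences are standard errors (SE) of a model fitted to all 12 arrays, and a gene was called at an adjusted p below 0.05 over all 12672 genes. A difference that missed this threshold is given with its value only.

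This stretch of chromosome 8 is rich in genes of unrelated function. It holds enzymes for tRNA charging and modification (Farsa, Trmt1), transcription factors of blood cell development (Klf1, Lyl1), histone and DNA regulators (Asf1b, Samd1, Rfx1), parts of ubiquitin ligases (Dcaf15, Fbxw9), the catalytic subunit of protein kinase A (Prkaca) and the synaptic adhesion receptor latrophilin 1 (Adgrl1). Neighbouring genes share a chromosome domain, and an allele made by gene targeting is inherited together with the DNA that lies close to it. Many of the members are housekeeping genes used by most cell types.

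Several properties of the arrays touch the results. Wild type replicate 3 stood apart in both lines: it was the lowest of its 3 littermate arrays for 19 of the 30 members in the 11Q line and for 17 in the 118Q line, against 35.7% and 33.3% of all genes. For 15 members it was the lowest in both lines, and for 5 (Prkaca, Ccdc130, Trmt1, Syce2 and Dnase2a) the highest in both. Counts, medians and the members that moved most are therefore also given without these arrays, an alternative added after seeing the data. The 18S ribosomal RNA signal was 8.56 to 9.23 in the 118Q knockin arrays, 9.66 to 10.3 in their littermates and 10.1 to 10.5 in the 11Q line. Every 118Q knockin array thus lay below all others. In a fit with this signal as covariate, its share and that of the 118Q knockin cannot be told apart. Values also leaned with gene span, meaning how long a gene is on the chromosome: across genes, Spearman's rho of span with the deviation from the mean of all arrays was -0.33 to -0.24 in the 118Q knockin arrays and -0.04 to 0.23 in the other arrays. Members are short, with a median span of 13.2 kb against 23.9 kb for all genes. Of the cerebellar markers, 6 of 8 for Purkinje cells and 6 of 7 for granule cells were above the filter, and none of the 4 forebrain markers was. Of the 6 Purkinje markers, 3 were lower in the 118Q knockins at an unadjusted p below 0.05; the median difference of the 6 was -0.48, and the summed linear level was 4750 to 5901 against 6301 to 6755 in the littermates. All 4 choroid plexus markers were lower in the 11Q knockins at an unadjusted p below 0.05, with a median difference of -2.91, but single arrays differed widely. Ttr, 1 of these markers, read 7.68, 5.26 and 11.8 in the 11Q knockins and 11.9, 11.9 and 11.9 in their littermates. It was also low in 118Q wild type replicate 2 (6.25) and 118Q knockin replicate 3 (8.66). The part of these markers in the values of Cacna1a and the members was not tested. In bulk tissue, fewer cells of a type and less RNA per cell cannot be told apart.

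Cacna1a read 6.36, 6.25 and 6.48 in the 11Q wild types, 6.28, 6.42 and 6.17 in the 11Q knockins, 6.09, 5.54 and 6.19 in the 118Q wild types and 5.67, 5.65 and 5.50 in the 118Q knockins. The 118Q knockin lay below the 11Q knockin with no overlap (-0.68 ± 0.15, adjusted p = 0.0162). However, the 118Q wild types also lay below the 11Q wild types with no overlap (-0.42, not called). Within the lines its differences were -0.34 ± 0.15 (118Q, adjusted p = 0.264) and -0.07 ± 0.15 (11Q, adjusted p = 0.954). Taking the 18S signal into the fit as a covariate turned the first of these to 0.06. A second Cacna1a probe set differed by -0.14 (118Q) and 0.22 (11Q), and a further one by 0.17 and 0.21. Between the knockins these probe sets differed by -0.77 and -0.25. Tested probe set by probe set, their adjusted p-values there were 0.0175 and 0.477.

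With limma, no neighbour of Cacna1a was called in the 118Q knockin against its littermates, where 0.189% of all genes were, and none in the 11Q knockin, where 0% were. Calls were made only between the knockins: Dand5, Farsa, Wdr83 and Lyl1 were higher in the 118Q than in the 11Q knockin, by 0.34 to 0.52. That is 4 of 30 members, or 13.3%, and 13.7% of all genes were called in the same comparison (10.1% higher). Below the threshold, more members had a positive than a negative difference in each line. The median member difference was 0.19 in the 118Q line, where all genes had 0.06, and 0.06 in the 11Q line, where all genes had -0.04. Array by array, the median deviation of the members from their means was 0.13 to 0.18 in the 118Q knockins and -0.13 to 0.04 in their littermates. In the 11Q line it was -0.05, 0.01 and 0.00 in the knockins and 0.04, -0.02 and -0.21 in the wild types. No 11Q knockin array thus stood above wild type replicate 1, and replicate 3 was far below the rest. Both lines showed a positive difference for 17 of 30 members (56.7%), against 27.2% of all genes, and a negative one for only Prkaca, Asf1b and Dnase2a, against 26.5%. The first of these counts depended on the arrays and the scaling. It was 13 of 30 (43.3%, all genes 26.4%) without wild type replicates 3, and 6 of 30 (20%, all genes 25.3%) with the 18S signal as covariate.

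At an unadjusted p below 0.05, 8 of 30 members (26.7%) differed in the 118Q line, 7 of them higher, against 18.7% of all genes (12% higher). In the 11Q line the count was 6 (20%), 4 of them higher, against 4.23% of all genes (1.1% higher). The 118Q share thus lay nearer to its background than the 11Q share did. Farsa and Fbxw9 were in both counts and in the same direction, which is 6.67% of the members and 0.347% of all genes. Of the 12 measured non-members inside the stretch, Junb met the same rule (8.33%), with 0.70 in the 118Q line and 0.72 in the 11Q line. Without wild type replicates 3 only Farsa remained of the members, and with the 18S signal as covariate no member. The knockin arrays lay wholly above or wholly below the littermate arrays for 8 members in the 118Q line (all genes 22.4%) and for 10 in the 11Q line (all genes 10.4%). Dcaf15 and Farsa did so in both lines, higher each time (6.67%; all genes 1.24%). For Dcaf15 all 6 knockin arrays were above all 6 wild type arrays, by a margin that vanishes at 2 decimals (4.66 on either side); 0.308% of all genes were separated in this way.

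**Figure D1:**
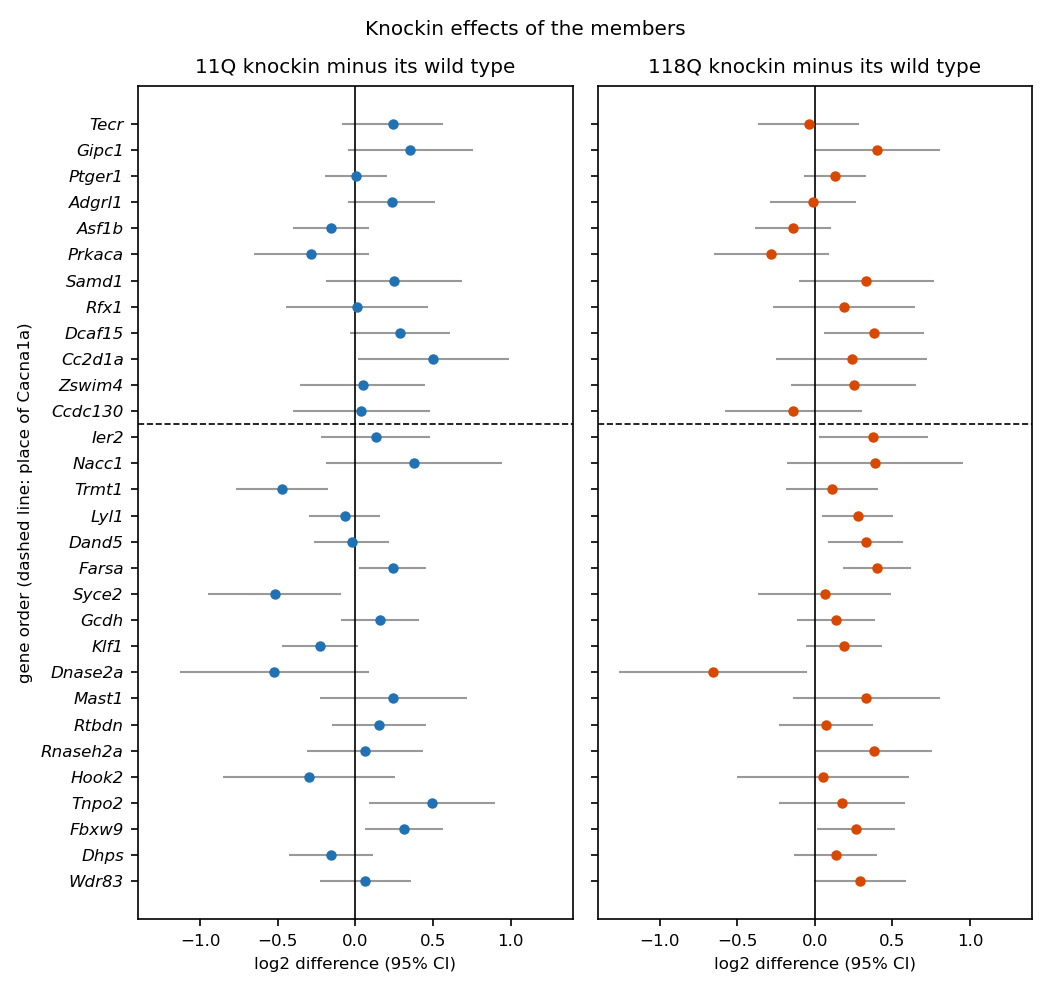
Log2 difference between knockin and littermates for the 30 members in gene order, with 95% confidence intervals of the model, for the 11Q line (left) and the 118Q line (right). Most points lie to the right of 0, 20 of 30 on the left panel and 24 of 30 on the right, while Dnase2a lies far to the left in both.

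The promoters of 5 members on which these results turn are shown here as the 250 bases before the gene's start, from RefSeq on the GRCm38.p6 assembly. Farsa, Fbxw9 and Dcaf15 stood out in both lines, Dnase2a had the most negative differences, and Dand5 had the smallest p between the knockins. Capitals mark matches to 4 motifs searched on both strands: TATAAA of the TATA box, then CCAAT of the CCAAT box, further GGGCGG of the GC box, and the palindrome TGACGTCA of the cAMP response element. No matches overlap in these windows. The windows are chr8:84856736-84856985 (plus strand) for Farsa, chr8:85059869-85060118 (plus) for Fbxw9, chr8:84104798-84105047 (minus) for Dcaf15, chr8:84908505-84908754 (plus) for Dnase2a and chr8:84822824-84823073 (minus) for Dand5.
Farsa: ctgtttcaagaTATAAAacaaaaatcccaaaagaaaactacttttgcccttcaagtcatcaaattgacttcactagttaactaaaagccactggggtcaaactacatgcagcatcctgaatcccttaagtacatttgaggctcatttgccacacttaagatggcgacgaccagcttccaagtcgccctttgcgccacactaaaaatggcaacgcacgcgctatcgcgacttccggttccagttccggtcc
Fbxw9: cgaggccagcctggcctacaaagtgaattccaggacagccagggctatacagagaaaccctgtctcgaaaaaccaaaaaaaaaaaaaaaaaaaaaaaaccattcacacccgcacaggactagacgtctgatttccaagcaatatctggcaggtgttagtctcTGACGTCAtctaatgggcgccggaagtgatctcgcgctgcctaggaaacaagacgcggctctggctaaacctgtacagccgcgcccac
Dcaf15: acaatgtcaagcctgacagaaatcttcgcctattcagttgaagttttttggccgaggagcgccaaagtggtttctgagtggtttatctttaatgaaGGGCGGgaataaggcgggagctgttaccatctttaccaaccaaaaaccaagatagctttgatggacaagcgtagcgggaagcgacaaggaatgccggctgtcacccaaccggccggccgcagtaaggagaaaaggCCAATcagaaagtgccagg
Dnase2a: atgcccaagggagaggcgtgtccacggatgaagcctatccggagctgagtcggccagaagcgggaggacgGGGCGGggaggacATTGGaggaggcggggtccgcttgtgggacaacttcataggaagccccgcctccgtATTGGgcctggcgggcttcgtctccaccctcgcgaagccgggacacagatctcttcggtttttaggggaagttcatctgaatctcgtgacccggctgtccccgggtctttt
Dand5: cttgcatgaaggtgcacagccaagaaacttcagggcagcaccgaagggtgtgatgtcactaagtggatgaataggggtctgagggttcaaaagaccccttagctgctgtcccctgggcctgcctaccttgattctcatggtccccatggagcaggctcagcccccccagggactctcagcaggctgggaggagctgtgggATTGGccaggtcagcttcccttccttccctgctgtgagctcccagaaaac

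Fbxw9 holds the palindrome TGACGTCA 88 bases before its start, the only member window with a match, while 1.55% of all 32851 promoter windows have one. Farsa has TATAAA 239 bases before its start. Dcaf15 has CCAAT 19 bases and GGGCGG 154 bases before its start, and Dand5 has ATTGG, the reverse of CCAAT, at 50. The Dnase2a window is rich in GC (62.4%) and has ATTGG at 167 and 111 and GGGCGG at 180. RefSeq windows matched 27 of the 37 members (30 windows, since 3 genes have a second start). GGGCGG was found in 70.0% of the member windows and 32.7% of all, CCAAT in 50% and 33.8%, TATAAA in 10.0% and 12.4%, and TGACGTCA in 3.33% and 1.55%. Member windows had a median GC content of 57.6% and 14 CpG dinucleotides, against 52.4% and 6 over all windows. A match describes the letters in the window and does not show that a factor binds there.

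Of the members for RNA and protein synthesis, 5 of 6 had a positive difference in the 118Q line (median 0.21) and 4 of 6 in the 11Q line (median 0.05). Of all genes, 60% had a positive difference in the 118Q line and 40.7% in the 11Q line, and the counts of the other groups of members stand against the same shares. Farsa, the alpha subunit of the enzyme that charges phenylalanine onto its tRNA, read 4.93, 5.00 and 4.88 in the 11Q wild types and 5.23, 5.18 and 5.13 in the 11Q knockins. The 118Q wild types read 5.14, 5.27 and 4.95 for this gene and the 118Q knockins 5.48, 5.52 and 5.56. In each line every knockin array was above every littermate array, and the 118Q knockins were above all other arrays. The difference was 0.40 ± 0.10 in the 118Q line (1.32-fold, 95% confidence interval 0.18 to 0.62, adjusted p = 0.0801) and 0.24 ± 0.10 in the 11Q line (1.18-fold, 0.02 to 0.46, adjusted p = 0.939). Between the knockins it was 0.34 ± 0.10, which was called (adjusted p = 0.0422). With the 18S signal as covariate this last difference became -0.01, and the 118Q and 11Q differences 0.12 and 0.19. Without wild type replicates 3, the within-line differences were 0.31 and 0.21.

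Counting each of the 43 member probe sets above the filter on its own, 10 (23.3%) had an unadjusted p below 0.05 in the 118Q line, against 16.3% of all probe sets, and 10 (23.3%) in the 11Q line, against 3.66%. Several of these share a gene. More than 1 probe set lay above the filter for 10 members. Their probe sets agreed in sign for 6 of these members in the 118Q line and for 8 in the 11Q line. Farsa has 3 other probe sets above the filter, and they did not all move alike. One of them read 1.50, 1.87 and 1.56 in the 11Q wild types and 2.54, 3.16 and 2.57 in the 11Q knockins, a gap of 1.11 ± 0.23 with no overlap. In the 118Q line it read 1.77, 2.69 and 2.38 in the wild types and 2.96, 2.82 and 3.24 in the knockins, a difference of 0.73 ± 0.23. Tested probe set by probe set, neither passed (adjusted p = 0.702 and 0.16). The remaining 2 differed by 0.06 and -0.16 in the 118Q line and by 0.20 and 0.06 in the 11Q line. Which part of Farsa each probe set covers was not analysed here.

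Trmt1, which methylates a guanosine of tRNAs, differed most between the lines. It read 5.28, 5.08 and 5.29 in the 11Q wild types and 4.84, 4.72 and 4.67 in the 11Q knockins, all 3 below their littermates. The 118Q wild types read 4.85, 4.74 and 5.25 and the 118Q knockins 4.98, 5.22 and 4.98, which overlap. The effect was -0.47 ± 0.14 in the 11Q line (adjusted p = 0.939) and 0.11 ± 0.14 in the 118Q line. Their difference, 0.59 ± 0.19, had the smallest p of any member in that comparison and was not called (adjusted p = 0.346). A second Trmt1 probe set differed by -0.44 and 0.21 in the 11Q and 118Q lines, and a further one by 0.10 and 0.38, so the lower value in the 11Q knockin was seen with 2 of 3 probe sets.

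Wdr83, a scaffold protein tied to kinase signalling and to splicing, read 4.41, 4.32 and 4.72 in the 11Q wild types, 4.32, 4.58 and 4.74 in the 11Q knockins, 4.64, 4.83 and 4.68 in the 118Q wild types and 4.91, 4.97 and 5.14 in the 118Q knockins. Only the 118Q knockins stood clear of every other array. They were 0.46 ± 0.14 above the 11Q knockins (1.38-fold, adjusted p = 0.0431) and 0.29 ± 0.14 above their littermates (adjusted p = 0.276). Rnaseh2a, the catalytic subunit of the nuclease that removes RNA from DNA duplexes, differed by 0.38 ± 0.17 in the 118Q line and 0.06 in the 11Q line. Dhps, which makes the hypusine residue of the translation factor eIF5A, had 0.13 and -0.16. Its second probe set had 0.29 (118Q) and -0.29 (11Q). The splicing-related gene Ccdc130 read 1.54, 1.64 and 2.02 in the 11Q wild types and 2.07, 2.11 and 2.24 in the 118Q wild types, close to the filter. It was the only member whose wild types of both lines did not overlap (0.41 ± 0.20, adjusted p = 1.00; 6.44% of all genes were separated). Its knockins ran from 1.33 to 2.05 (11Q) and from 1.66 to 2.33 (118Q).

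**Figure D2:**
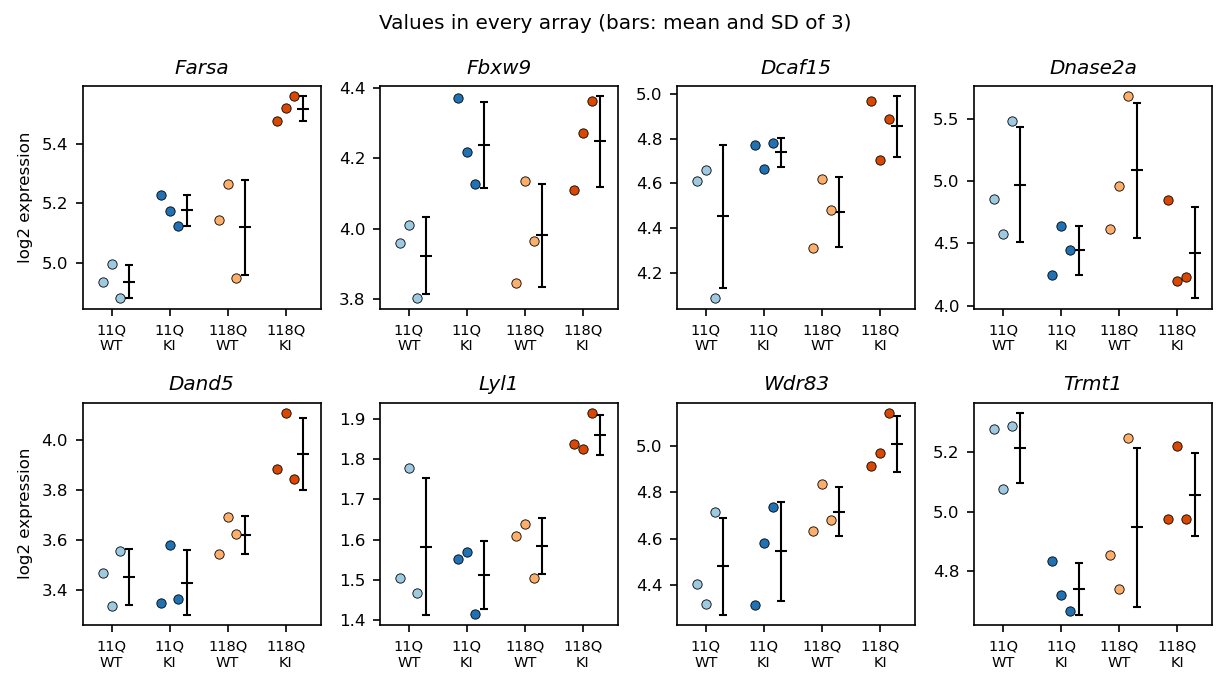
Log2 expression of 8 members in every array, by line and genotype; points are the 3 mice of a group and bars are mean and SD, and each panel has its own vertical scale. Farsa is higher in both knockins than in their own littermates, Dand5, Lyl1 and Wdr83 are highest in the 118Q knockins, Trmt1 is lower in the 11Q knockins only, and the single high wild type points of Dnase2a are replicate 3.

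Genes for transport and protein turnover gave positive differences in 4 of 4 measured members in the 118Q line (median 0.22) and in 3 of 4 in the 11Q line (median 0.30). Fbxw9, an F-box protein that selects substrates for a ubiquitin ligase, read 3.96, 4.01 and 3.80 in the 11Q wild types and 4.37, 4.22 and 4.13 in the 11Q knockins. Its 118Q wild types read 3.84, 4.13 and 3.96 and the 118Q knockins 4.11, 4.27 and 4.36, so that a single littermate array lay above the lowest knockin array. The differences were 0.31 ± 0.12 (11Q) and 0.27 ± 0.12 (118Q), with adjusted p-values of 0.939 and 0.24. The other Fbxw9 probe set differed by 0.09 and 0.34.

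Dcaf15, a substrate receptor of another ubiquitin ligase, read 4.61, 4.66 and 4.09 in the 11Q wild types, 4.77, 4.66 and 4.78 in the 11Q knockins, 4.31, 4.62 and 4.48 in the 118Q wild types and 4.97, 4.71 and 4.89 in the 118Q knockins. Knockin arrays were above wild type arrays throughout, with the third 11Q wild type far below the rest. The differences were 0.38 ± 0.15 (118Q, adjusted p = 0.197) and 0.29 ± 0.15 (11Q, adjusted p = 0.939). Without wild type replicates 3 they were 0.39 and 0.10. Tnpo2, a nuclear import receptor, read 5.87, 5.75 and 5.10 in the 11Q wild types and 6.16, 5.99 and 6.04 in the 11Q knockins, a difference of 0.49 ± 0.19 that became 0.26 without wild type replicates 3. In the 118Q line its wild types read 5.86, 5.73 and 5.32 and its knockins 5.96, 5.71 and 5.78 (0.18 ± 0.19, and 0.02 without replicate 3). A second Tnpo2 probe set differed by 0.40 and 0.17 in the 11Q and 118Q lines. Hook2, a microtubule adaptor, was scattered between 3.00 and 4.16 and differed by -0.30 (11Q) and 0.05 (118Q).

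Of 10 genes for transcription, chromatin and chromosomes, 9 had a positive difference in the 118Q line (median 0.24) and 6 in the 11Q line (median 0.03). Lyl1, a basic helix-loop-helix factor of blood and vessel precursors, read 1.50, 1.78 and 1.47 in the 11Q wild types and 1.55, 1.57 and 1.42 in the 11Q knockins. Its 118Q wild types read 1.61, 1.64 and 1.50 and the 118Q knockins 1.84, 1.83 and 1.92. The 118Q knockins lay above every other array, but all values are near the filter. The difference between knockins was 0.35 ± 0.11 (adjusted p = 0.0473), that from the 118Q littermates 0.28 ± 0.11 (adjusted p = 0.191). Removing the trend with gene span lowered the first of these to 0.13. The summed linear level of the 5 endothelial markers was 76.3 to 105 in the 118Q knockins and 107 to 139 in their littermates, and that of the 7 microglia markers above the filter 257 to 327 and 199 to 229; their part in the values of Lyl1 was not tested.

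Klf1, a master regulator of red cell genes, read 2.10, 2.26 and 1.95 in the 11Q wild types, 1.76, 1.83 and 2.03 in the 11Q knockins, 1.95, 1.92 and 2.07 in the 118Q wild types and 2.08, 2.26 and 2.16 in the 118Q knockins. The lines thus pointed opposite ways, -0.23 (11Q) and 0.19 (118Q), with a difference of effects of 0.42 ± 0.16 (adjusted p = 0.398). Of 7 erythroid markers, 1 was above the filter. Its linear level was 10.1 to 15.6 in the 11Q knockins and 6.63 to 10.1 in their littermates (log2 difference 0.56, unadjusted p below 0.05), and it overlapped between the groups of the 118Q line. Its part in the values of Klf1 was not tested. Ier2, an immediate early gene, read 4.74, 5.09 and 4.96 in the 11Q wild types and 4.74, 5.17 and 5.28 in the 11Q knockins. It read 5.19, 5.08 and 4.81 in the 118Q wild types and 5.58, 5.40 and 5.23 in the 118Q knockins, just clear of their littermates. The effects were 0.38 ± 0.16 (118Q, adjusted p = 0.233) and 0.13 ± 0.16 (11Q).

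Cc2d1a, a repressor of a serotonin receptor gene that also acts in endosomes, read 4.73, 4.59 and 3.73 in the 11Q wild types and 4.82, 4.97 and 4.78 in the 11Q knockins. In the 118Q line the wild types read 4.53, 4.85 and 4.22 and the knockins 4.90, 4.75 and 4.66. Its 11Q effect, 0.50 ± 0.22 (adjusted p = 0.939), was the most positive of the members in that line, and it became 0.19 without wild type replicates 3. The 118Q effect went from 0.24 to 0.08. Syce2, a part of the meiotic synaptonemal complex, read 4.04, 3.79 and 4.07 in the 11Q wild types and 3.38, 3.75 and 3.21 in the 11Q knockins, all below their littermates (-0.52 ± 0.20, adjusted p = 0.939). Its 118Q wild types read 3.94, 3.98 and 4.13 and the knockins 3.58, 4.41 and 4.25, which overlap (0.06 ± 0.20).

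The remaining genes of this group gave smaller or more scattered differences. Nacc1, a transcriptional corepressor with a BTB domain, had 0.39 ± 0.26 in the 118Q line and 0.38 ± 0.26 in the 11Q line. Without wild type replicates 3 these became 0.04 and 0.15. With all arrays, a second Nacc1 probe set differed by -0.03 (118Q) and 0.26 (11Q). Samd1, which binds unmethylated CpG islands, had 0.33 (118Q) and 0.25 (11Q), which became 0.12 and 0.04 without wild type replicates 3. The winged-helix factor Rfx1 had 0.19 and 0.01, and the zinc finger gene Zswim4 0.25 and 0.05; without those arrays the 11Q differences of both turned negative (-0.25 and -0.16). The histone chaperone gene Asf1b was the only one of the 10 below 0 in both lines (-0.14 and -0.16), and its 118Q knockins (2.70, 2.62 and 2.69) lay below its 118Q wild types (2.87, 2.83 and 2.74).

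**Figure D3:**
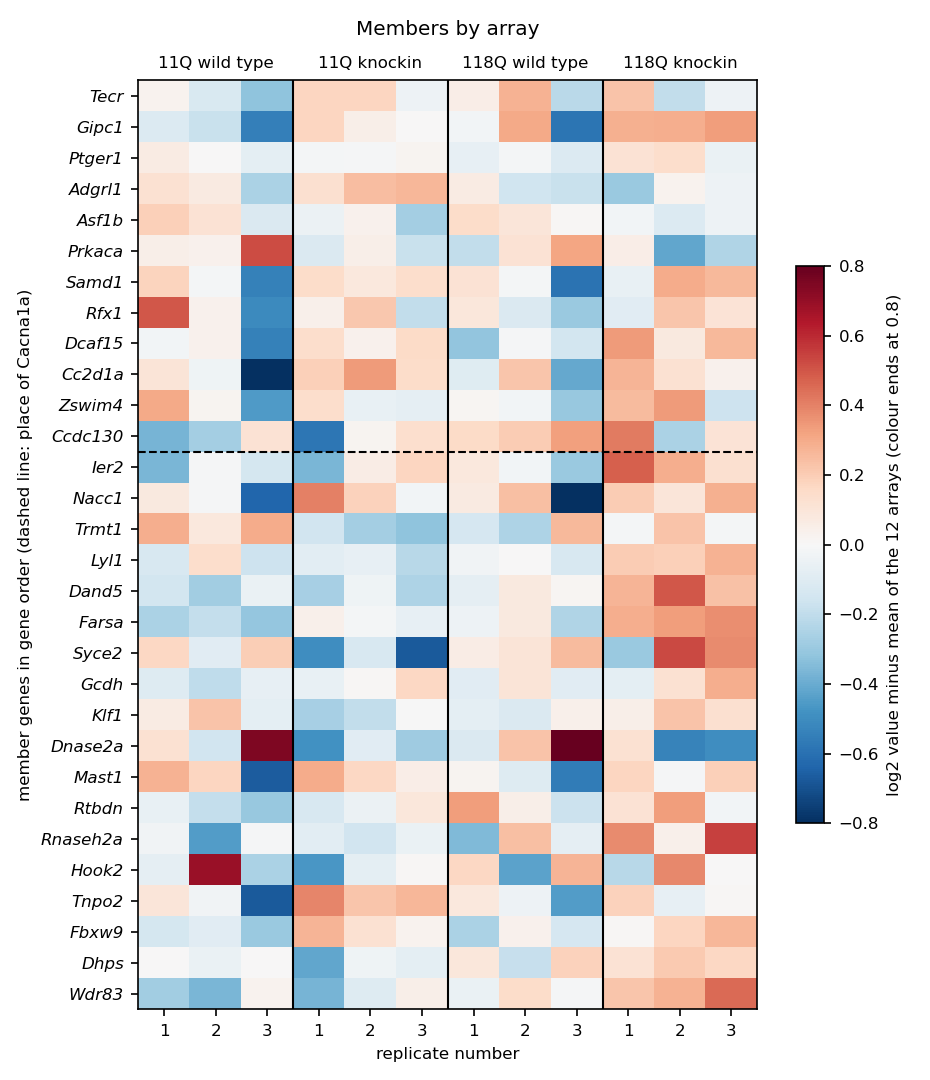
Each member's log2 value in each array minus its mean over the 12 arrays, in gene order, with red above and blue below that mean; colour ends at 0.8 on either side. Wild type replicate 3 forms a blue column in both lines, broken by red cells for Prkaca, Ccdc130, Trmt1, Syce2 and Dnase2a, and the 118Q knockin columns are mostly red after Cacna1a.

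Ligand, receptor and signalling genes were positive in 4 of 6 cases in each line, with medians of 0.23 (118Q) and 0.12 (11Q). Dand5, a secreted antagonist of Nodal known from left-right patterning, read 3.47, 3.33 and 3.56 in the 11Q wild types and 3.35, 3.58 and 3.36 in the 11Q knockins. Its 118Q wild types read 3.54, 3.69 and 3.62 and the 118Q knockins 3.88, 4.11 and 3.84, above every other array. The 118Q knockins exceeded the 11Q knockins by 0.52 ± 0.11 (1.43-fold, 95% confidence interval 0.28 to 0.76, adjusted p = 0.0143), the smallest p among members in any comparison. They exceeded their littermates by 0.33 ± 0.11 (adjusted p = 0.154), while the 11Q effect was -0.02 ± 0.11. The difference of these effects was 0.35 ± 0.16 (adjusted p = 0.446).

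Gipc1, a PDZ adaptor that brings receptors to endocytic vesicles, read 4.17, 4.10 and 3.74 in the 11Q wild types, 4.45, 4.33 and 4.29 in the 11Q knockins, 4.26, 4.59 and 3.70 in the 118Q wild types and 4.57, 4.57 and 4.62 in the 118Q knockins. Its differences, 0.40 ± 0.19 (118Q) and 0.35 ± 0.19 (11Q), had wild type replicate 3 as the lowest array in each line, and were 0.16 and 0.22 without it. Prkaca was negative in both lines by the same amount (-0.28 ± 0.17 and -0.28 ± 0.17), with replicate 3 as the highest wild type; without that array the differences were -0.16 (118Q) and -0.13 (11Q). Its second probe set differed by 0.26 (118Q) and 0.58 (11Q). The latrophilin gene Adgrl1 had 0.23 ± 0.13 in the 11Q line, where knockins (8.04, 8.15 and 8.17) lay above littermates (8.03, 7.98 and 7.65), and -0.01 in the 118Q line; the first became 0.12 without wild type replicates 3. Another Adgrl1 probe set differed by 0.64 and 0.31. The kinase gene Mast1 differed by 0.24 (11Q) and 0.33 (118Q). Without wild type replicates 3 the 11Q difference turned to -0.05 and the 118Q difference was 0.16. With all arrays, another Mast1 probe set differed by 0.51 (11Q) and 0.25 (118Q). The prostaglandin receptor gene Ptger1 differed by 0.00 (11Q) and 0.13 (118Q).

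Among the genes for metabolism and the lysosome, Dnase2a had the most negative differences of any member. This gene for a lysosomal DNase, which digests the DNA of engulfed cells, read 4.85, 4.58 and 5.48 in the 11Q wild types and 4.25, 4.64 and 4.45 in the 11Q knockins. It read 4.61, 4.96 and 5.68 in the 118Q wild types and 4.85, 4.20 and 4.23 in the 118Q knockins. The groups overlap in both lines, and the highest array of each line is wild type replicate 3. The differences were -0.66 ± 0.28 (118Q, adjusted p = 0.233) and -0.52 ± 0.28 (11Q, adjusted p = 0.939). They were -0.36 and -0.27 without wild type replicates 3, and the 118Q difference was 0.56 with the 18S signal as covariate, so its direction depended on that choice. Microglia markers summed to 257 to 327 in the 118Q knockins and 199 to 229 in their littermates, as given for Lyl1, and their part in the values of Dnase2a was not tested. Gcdh, a mitochondrial enzyme of lysine breakdown, differed by 0.16 ± 0.12 (11Q, groups apart) and 0.14 ± 0.12 (118Q). Tecr, an enzyme of very long fatty acid synthesis, differed by 0.24 and -0.04. Its second probe set differed by 0.32 (11Q) and -0.07 (118Q). Rtbdn, a riboflavin-binding protein of the retina, read 2.98, 2.85 and 2.73 in the 11Q wild types, 2.90, 2.99 and 3.12 in the 11Q knockins, 3.37, 3.08 and 2.86 in the 118Q wild types and 3.15, 3.37 and 3.01 in the 118Q knockins. Its differences were 0.15 (11Q), 0.07 (118Q) and 0.25 between the wild types, with overlap each time, and the 118Q difference turned to -0.05 without wild type replicate 3.

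The members can also be described by their side of Cacna1a. After Cacna1a, 17 of 18 members (94.4%) had a positive 118Q effect (median 0.23), and before it 7 of 12 (58.3%, median 0.16), against 60% of all genes. For the 11Q effect the counts were 10 of 18 (55.6%, median 0.06) and 10 of 12 (83.3%, median 0.14), against 40.7% of all genes. Between the knockins, 10 members had an unadjusted p below 0.05 (33.3%; all genes 30.9%), and the 9 that were higher (all genes 22.6%) all lie after Cacna1a. The groups did not overlap for 11 members (36.7%; all genes 38.1%), and the median difference was 0.31 after and 0.05 before it. All genes had a median of 0.09 in that comparison. This split was made after seeing the values, and no test of it was run.

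Genes of the same stretch that are not members, and the next 40 measured genes on either side, give a local comparison of 92 genes. Their median was 0.00 in the 118Q line and -0.06 in the 11Q line. At an unadjusted p below 0.05 there were 9 in the 118Q line (9.78%, all genes 18.7%), 7 higher and 2 lower. In the 11Q line there were 12 (13.0%, all genes 4.23%), 3 higher and 9 lower. Of the 92, 20 (21.7%, all genes 27.2%) were positive in both lines and 38 (41.3%, all genes 26.5%) were negative in both. In the 118Q line the 12 non-members inside the stretch lay closer to the members. There 3 of 12 (25%, all genes 18.7%) had an unadjusted p below 0.05, and 9 of 12 were positive (75%, all genes 60%, median 0.14). In the 11Q line 3 of 12 (25%, all genes 4.23%) had such a p, 2 of them lower. Only 5 of 12 were positive there (41.7%, median -0.02), near the 40.7% of all genes. The genes with the smallest p in the 118Q line were D8Ertd738e (0.47 ± 0.12), Lonp2, a peroxisomal protease (-0.33), the AP-1 gene Junb (0.70) and Siah1a, a ubiquitin ligase (0.28). In the 11Q line they were Gadd45gip1, a protein of the mitochondrial ribosome (-0.97 ± 0.18, adjusted p = 0.419), Mri1, an enzyme of methionine salvage (-0.75), the lipid enzyme gene Lpcat2 (-1.12) and Smim7 (-0.49). None passed. Gadd45gip1 and Mri1 lie inside the stretch. Their 11Q differences were larger in size than that of any member at the 1 probe set kept per gene. Another Farsa probe set, given above, differed by 1.11 in the 11Q line.

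**Figure D4:**
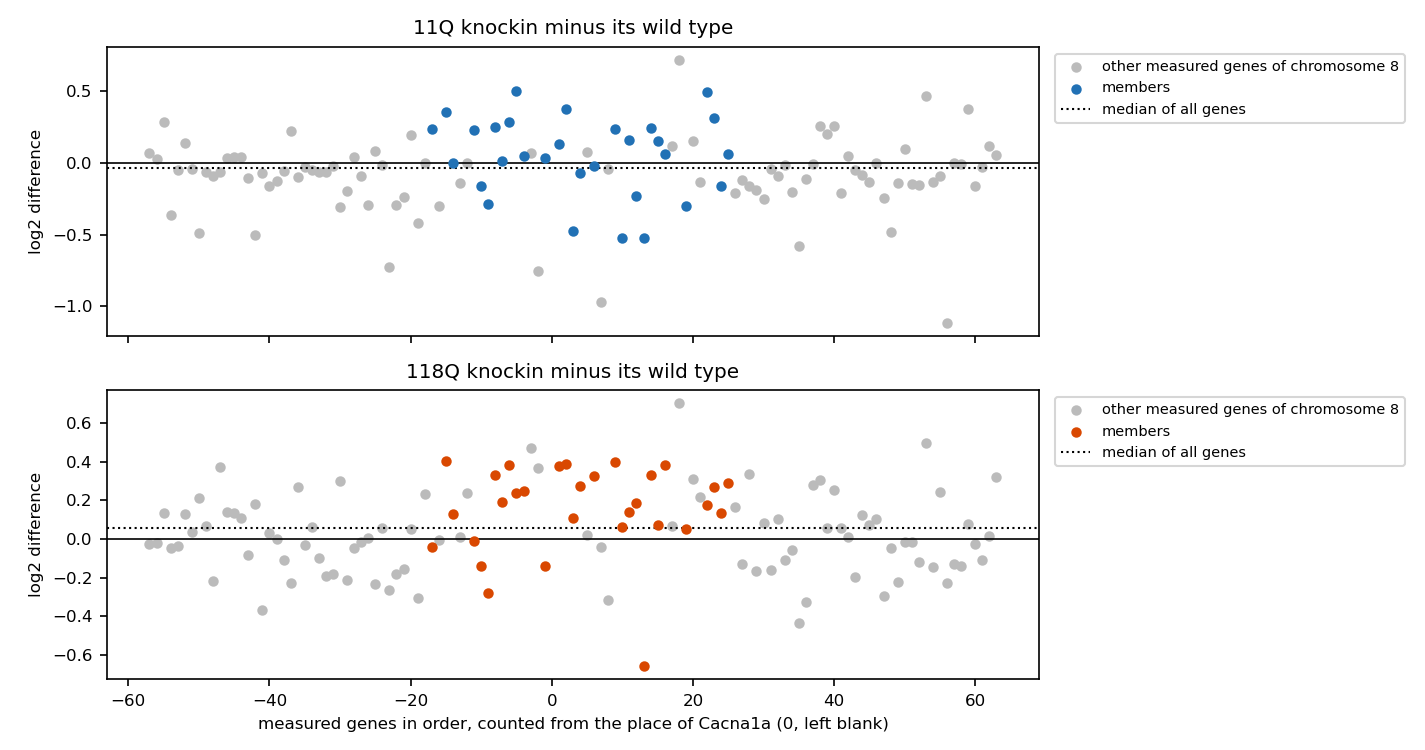
Log2 difference between knockin and littermates for the 30 members (coloured) and 92 other measured genes of chromosome 8 (grey), in gene order from the place of Cacna1a, for the 11Q line (top) and the 118Q line (bottom). The dotted line is the median of all genes (-0.04 and 0.06); in the 118Q line most members after Cacna1a lie above it, and in the 11Q line grey points inside the stretch reach -0.97.

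Dropping wild type replicate 3 from each line changed the counts and, for the 118Q effect, the median. The median member difference was then 0.13 in the 118Q line and 0.07 in the 11Q line. Differences were positive for 23 members in the 118Q line (76.7%, all genes 61.3%) and for 17 in the 11Q line (56.7%, all genes 43%). At an unadjusted p below 0.05, 4 members passed in the 118Q line (Dcaf15, Dand5 and Farsa from before, and Trmt1) against 17.0% of all genes, that is 13.3% of the members. All 4 were higher. In the 11Q line there were 5 (16.7%), against 2.67% of all genes, 2 of them higher and 3 lower. Farsa and Tnpo2 from before were higher, and Trmt1 from before, Asf1b and Klf1 were lower. Farsa and Trmt1 were in both, Farsa in the same direction and Trmt1 in opposite directions (0.26 in the 118Q and -0.44 in the 11Q line). With the 18S signal as covariate, the 118Q median was 0.04, with 15 of 30 members above 0 and none at an unadjusted p below 0.05 (all genes 7.05%). In the 11Q line the median was 0.075 with this covariate (all genes -0.022). There 4 of 30 members (13.3%, all genes 3.24%) had such a p, 2 of them higher and 2 lower. Removing the trend with gene span within each array gave a 118Q median of 0.12 (all genes 0.01). It left no member called between the knockins, where 6.54% of all genes were.

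**Figure D5:**
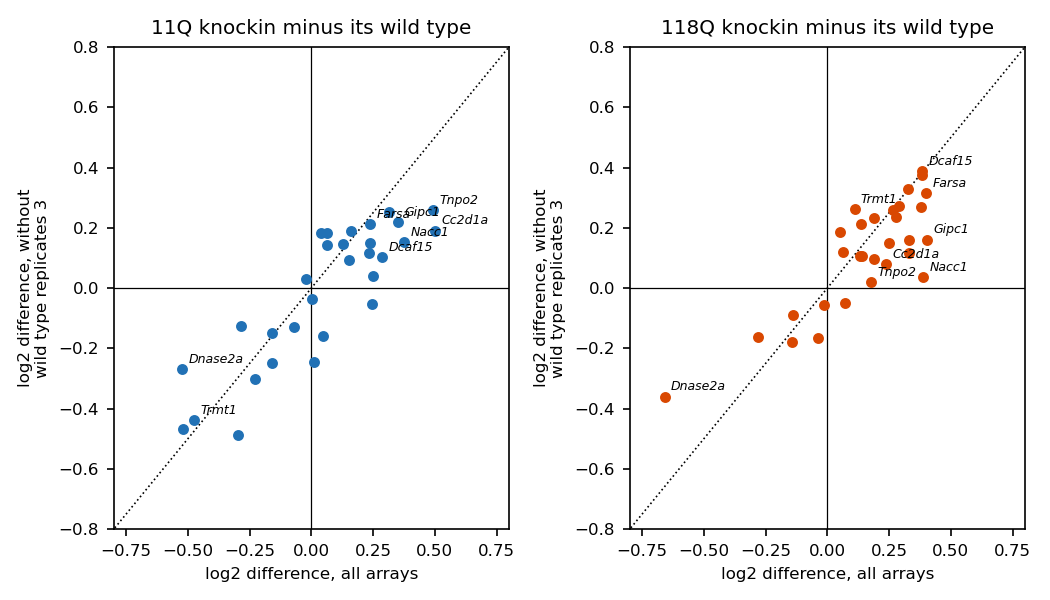
Member differences with all arrays (horizontal axis) against those with replicate 3 of the wild types left out in each line (vertical axis), in log2 units; the dotted line marks equal values. Nacc1, Cc2d1a, Tnpo2 and Dnase2a move towards 0, while Farsa, Dcaf15 in the 118Q line and Trmt1 in the 11Q line stay near the dotted line.

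Between the wild types of both lines no member was called (0% of all genes) and none had an unadjusted p below 0.05, which 2.98% of all genes had. The median member difference was 0.05, with the 118Q wild types above the 11Q wild types for 19 of 30 members, and the values nearest to the threshold were those of Ccdc130 (0.41), Trmt1 (-0.27), Farsa (0.18) and Rtbdn (0.25). The difference of the knockin effects called no member either (0% of all genes), and 4 of 30 (Trmt1, Klf1, Lyl1 and Dand5, 13.3%) had an unadjusted p below 0.05, against 11.0% of all genes. An average of both knockin effects, added after seeing the data, called no member (0% of all genes). It gave 9 of 30 at an unadjusted p below 0.05 (30.0%, against 13.2% of all genes), led by Farsa (0.32 ± 0.07, adjusted p = 0.211), Fbxw9 (0.29), Dcaf15 (0.33), Dnase2a (-0.59), Gipc1 (0.38) and Tnpo2 (0.33). Without wild type replicates 3 the count was 6 of 30 (20%, all genes 8.61%), the median went from 0.13 to 0.05, and Dnase2a, Gipc1 and Tnpo2 had -0.31, 0.19 and 0.14. With the 18S signal as covariate 1 of 30 was left (3.33%, all genes 4.43%).

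The 4 calls between the knockins depended on single arrays and on the scaling. The count was 0 without 11Q knockin replicate 1 or 3 or 118Q knockin replicate 2. It was 1 without 11Q wild type replicate 1, 118Q wild type replicate 1 or 118Q knockin replicate 3, and 2 without 11Q knockin replicate 2 or 118Q wild type replicate 2. Arrays centred on their median gave 2 (6.67%, all genes 11.5%), and quantile normalization gave 2 (6.67%, all genes 13.4%). For the fits without 1 array the share of all genes is not given here. The knockins of the lines share no littermates, so this comparison also holds whatever differs between the lines.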

How the data were processed

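Total RNA of 12 cerebella was extracted with RNeasy columns, had an RNA integrity number over 5.0, was treated with DNase and given a biotin label in 1 cycle, per the labels' protocols. The authors deposited 1 log2 value per probe set and array, computed by RMA according to the submitters' processing notes, with no version or settings stated there. Of 45101 probe sets, 34958 had 1 gene symbol, 932 several and 9211 none in the array annotation. The 40% with the lowest mean (under 1.58) were removed, and the brightest probe set of each gene was kept.

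Group means were modelled on all 12 arrays with limma 3.58.1 in R 4.3.3 (8 residual and 4.61 prior degrees of freedom), with two-sided tests and Benjamini-Hochberg adjustment; the steps were tested on simulated data. Precision is limited by 3 arrays per group. Gene order came from GRCm38.p6. Cacna1a was named first. Values in every array are given for members called in any comparison and for those with the smallest p, up to 6 per knockin effect and 4 in each other comparison; neighbouring genes, up to 4 per effect. Gipc1 was given array by array because of the added average, after its values were seen. The members and lists were chosen with earlier results of these data known. Same-numbered arrays of a line did not deviate together (correlation -0.17 to 0.19 across genes), so replicate numbers were not taken as pairs.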

Additional observations from a re-analysis of the deposited data

How the results depend on the processing

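No member was called in the 11Q effect or between the wild types under any alternative run. In the 118Q effect an adjusted p below 0.1 gave 1 member (3.33%; all genes 3.09%) and array weights 6 (20%; all genes 18.7%); array weights also gave 1 for the difference of effects (3.33%; 3.11%) and 2 for the average (6.67%; 3.24%). Between the knockins, 7 members were called at an adjusted p below 0.1 (23.3% against 22.8% of all genes) and 11 with array weights (36.7% against 47.3%). The count was 1 with no filter (3.12% against 8.33%) and 1 with probe sets tested one by one (2.33% against 9.94%). It was 2 with arrays centred (6.67% against 11.5%) and 2 with quantile normalization (6.67% against 13.4%). No member was called with the 18S covariate (0% of all genes) or with the span trend removed (6.54% of all genes). With the 18S covariate the median member difference was 0.044 (118Q), -0.017 (between knockins), -0.041 (between wild types) and 0.046 (average); with the span trend removed it was -0.039 for the difference of effects and -0.0085 between knockins. The 18S covariate also turned the 118Q differences of Cacna1a to 0.059 and Dnase2a to 0.56, the difference between knockins of Farsa to -0.011, and the average effects of Dnase2a to 0.13 and Gipc1 to -0.047. The cause was not tested.

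Leaving out 1 array at a time, calls between the knockins ranged from 0 to 4 and were 0 in every other comparison. The medians ranged from 0.13 to 0.23 (118Q), 0.053 to 0.18 (11Q), -0.0071 to 0.21 (difference of effects), 0.08 to 0.17 (between knockins), -0.03 to 0.10 (between wild types) and 0.08 to 0.16 (average). With the replicate number as a block, 4 members (13.3%) were again called between the knockins, against 14.2% of all genes. None was called elsewhere, where at most 0.0395% of all genes were. At an unadjusted p below 0.05 there were 8 members in the 118Q line (26.7%, all genes 16.9%) and 5 in the 11Q line (16.7%, all genes 4.18%). For the difference of effects there was 1 (3.33%, all genes 9.73%), against 4 without the block (13.3%, all genes 11.0%). With 3 arrays per group, the 95% confidence intervals of most member differences include 0.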
